A study of Rattus norvegicus with 40 samples.

Results

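Heat shock protein genes were followed in rat microglia: Hspa1b (ENSRNOG00000045654), Hspa5 (ENSRNOG00000018294), Hspa8 (ENSRNOG00000034066), Hspb1 (ENSRNOG00000023546) and Hspd1 (ENSRNOG00000014525), 5 of the 32883 gene IDs of the deposited count table. They were chosen by ID as chaperones of the cytosol, the endoplasmic reticulum and the mitochondrion, and all 5 IDs were found. The table does not pair IDs with names, so the names are those given with the IDs and could not be checked against it. RNA sequencing measured microglia, the immune cells that reside in brain and spinal cord, isolated on magnetic beads through CD11b from the medulla and from cervical segments C3 to C6 of the spinal cord of 8-week-old Sprague Dawley rats. CD11b is also carried by other myeloid cells, and the markers of microglia and of other cell types could not be looked up without gene names.

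The dams of all animals had breathed cycling gas from gestational day 10 to 21, in sessions of 8 hours a day with 15 cycles each hour. In the normoxia groups both phases held 21% oxygen, and in the hypoxia groups 10.5% oxygen alternated with 21%. Male and female offspring of each exposure and both regions gave 8 groups of 5 libraries, 40 in all, from 20 animals that each gave a medulla and a cord library. By the series design 1 male and 1 female came from each litter, so replicates within a group are separate animals.

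Heat shock proteins are chaperones, which bind unfolded proteins and help them to fold, to assemble or to be cleared. Hspa8 encodes the constitutive cytosolic Hsp70-family chaperone Hsc70, and Hspa1b a closely related stress-inducible one. Hspb1 encodes a small heat shock protein that holds unfolded clients in solution, and Hspd1 the chaperonin of the mitochondrial matrix. The transcription factor Hsf1 raises this group under proteotoxic stress through heat shock elements, repeats of the bases GAA in alternating orientation. Hspa5 encodes BiP, the Hsp70-family chaperone of the endoplasmic reticulum, and is a classical target of the unfolded protein response, which acts through endoplasmic reticulum (ER) stress elements. In microglia these genes are known to respond to cell stress and injury.

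Total counts per library ran from 6061346 to 24039411 reads. The shallowest library, female hypoxia medulla replicate 3, also held the fewest genes with counts (13379), and results that rest on it are given with and without it. Levels below are CPM, the counts of a gene scaled to the total of its library, and fold changes and adjusted p-values come from edgeR's quasi-likelihood test over all genes that passed its filter on low counts, with a gene called at an adjusted p under 0.05. Of the 5 members, 4 passed that filter in each region; Hspa1b did not. CPM is not corrected for transcript length, so levels are compared between libraries for 1 gene at a time.

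The promoters of the 4 members with an entry in the RefSeq table, of build GRCr8, are shown with their matches to heat shock and ER stress elements. Each window is the 250 bases before the start that the promoter table uses, written 5′ to 3′ on the strand of the gene: Hspa8 (chr8:50080264-50080513, plus strand), Hspb1 (chr12:26432302-26432551, minus strand), Hspd1 (chr9:64084038-64084287, minus strand) and Hspa5 (chr3:38452766-38453015, plus strand). The windows of Hspa8, Hspb1 and Hspa5 end where the gene begins in the RefSeq gene table. That of Hspd1 lies inside the gene as that table gives it, 45 to 294 bases past its first base, so it is no stretch upstream of that start. Capitals mark matches, on either strand, to 3 motifs. These are 2 ways in which 2 units of the heat shock element can face each other, GAANNTTC and TTCNNGAA, and the ER stress element, CCAAT followed by 9 bases of any kind and CCACG.
Hspa8: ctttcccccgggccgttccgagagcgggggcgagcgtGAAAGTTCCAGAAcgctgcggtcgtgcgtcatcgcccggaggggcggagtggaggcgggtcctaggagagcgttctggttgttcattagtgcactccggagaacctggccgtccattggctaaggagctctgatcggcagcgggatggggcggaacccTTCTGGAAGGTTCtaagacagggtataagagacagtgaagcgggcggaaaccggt
Hspb1: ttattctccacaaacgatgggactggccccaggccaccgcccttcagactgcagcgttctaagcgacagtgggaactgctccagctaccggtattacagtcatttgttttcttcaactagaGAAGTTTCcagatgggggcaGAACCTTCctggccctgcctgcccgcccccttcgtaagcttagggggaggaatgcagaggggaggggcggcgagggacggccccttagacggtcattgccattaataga
Hspd1: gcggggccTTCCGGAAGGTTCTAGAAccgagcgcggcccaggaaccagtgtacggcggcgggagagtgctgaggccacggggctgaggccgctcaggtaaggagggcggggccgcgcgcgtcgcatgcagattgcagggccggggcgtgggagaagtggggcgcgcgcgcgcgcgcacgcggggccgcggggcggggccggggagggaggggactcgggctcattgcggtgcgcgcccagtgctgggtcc
Hspa5: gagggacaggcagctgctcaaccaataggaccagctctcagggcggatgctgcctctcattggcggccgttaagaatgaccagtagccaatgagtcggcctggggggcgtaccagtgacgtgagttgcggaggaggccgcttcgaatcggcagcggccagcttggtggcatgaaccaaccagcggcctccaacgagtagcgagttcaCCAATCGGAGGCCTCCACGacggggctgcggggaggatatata

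Counting back from the start of the promoter table, at base -1, Hspa8 held GAANNTTC at -213 to -206 and at -50 to -43, each overlapping a TTCNNGAA, at -208 to -201 and at -55 to -48. Hspb1 held GAANNTTC at -129 to -122 and at -109 to -102. Hspd1 held GAANNTTC at -237 to -230, overlapping TTCNNGAA on both sides, at -242 to -235 and at -232 to -225. Hspa5 held neither; its only match was the ER stress element at -43 to -25. Of all 33469 promoter windows of the same length, 7.23% held GAANNTTC, 7.48% held TTCNNGAA and 0.0657% (22 windows) held the ER stress element. Both heat shock motifs read the same on either strand. A match is a run of letters in this window, not a measured binding site. Any link between the matches and the levels of these genes was not tested.

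Hspa1b, the inducible cytosolic member, was listed at 0 in 35 of the 40 libraries. It had counts in male normoxia medulla replicate 2 (41 reads, 1.71 CPM) and replicate 5 (56 reads, 3.06 CPM), in female normoxia cord replicate 1 (758 reads, 65.8 CPM), and in female hypoxia cord replicate 4 (58 reads, 3.48 CPM) and replicate 5 (536 reads, 29.7 CPM). A count of 0 with the limit of 3 reads allows at most 0.144 to 0.495 CPM in the other 35 libraries, for counting error only. Both libraries of the cord with over 500 reads thus lay far above that limit while their group mates were at 0 or at 3.48 CPM. Among all IDs, Hspa1b was the only 1 with counts in 1 to 5 libraries and over 500 reads in the highest of them, a criterion chosen after its values were seen.

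The libraries with Hspa1b reads spread from the highest to the 8th highest of their region for Hspb1, the small heat shock protein gene. Female normoxia cord replicate 1 had the highest Hspb1 level of the 20 cord libraries (219.8 CPM), and female hypoxia cord replicate 5 the 3rd highest (203.7 CPM). Male normoxia medulla replicate 5 had the highest Hspb1 level of the 20 medulla libraries (72.7 CPM) and male normoxia medulla replicate 2 the 4th highest (29.1 CPM). Female hypoxia cord replicate 4 ranked 8th in the cord (71.3 CPM), at the median of its group. Other libraries were high for Hspb1 with Hspa1b at 0: male normoxia cord replicate 5, 2nd in the cord (217 CPM), and female hypoxia medulla replicates 5 and 2, 2nd and 3rd in the medulla (51.4 and 29.8 CPM). RefSeq (GRCr8) places Hspa1b close to its near-identical copy Hspa1a on chromosome 20. How reads that match both copies were counted is not given in the sources used here. The zeros of Hspa1b are therefore uncertain, and whether they come from the counting was not tested. No fold change is given for Hspa1b. In the fit of all 40 libraries it was tested and not called between regions, with edgeR adjusted p = 0.103 in normoxia females, 0.0720 in hypoxia females and 0.363 in normoxia males.

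**Figure D1:**
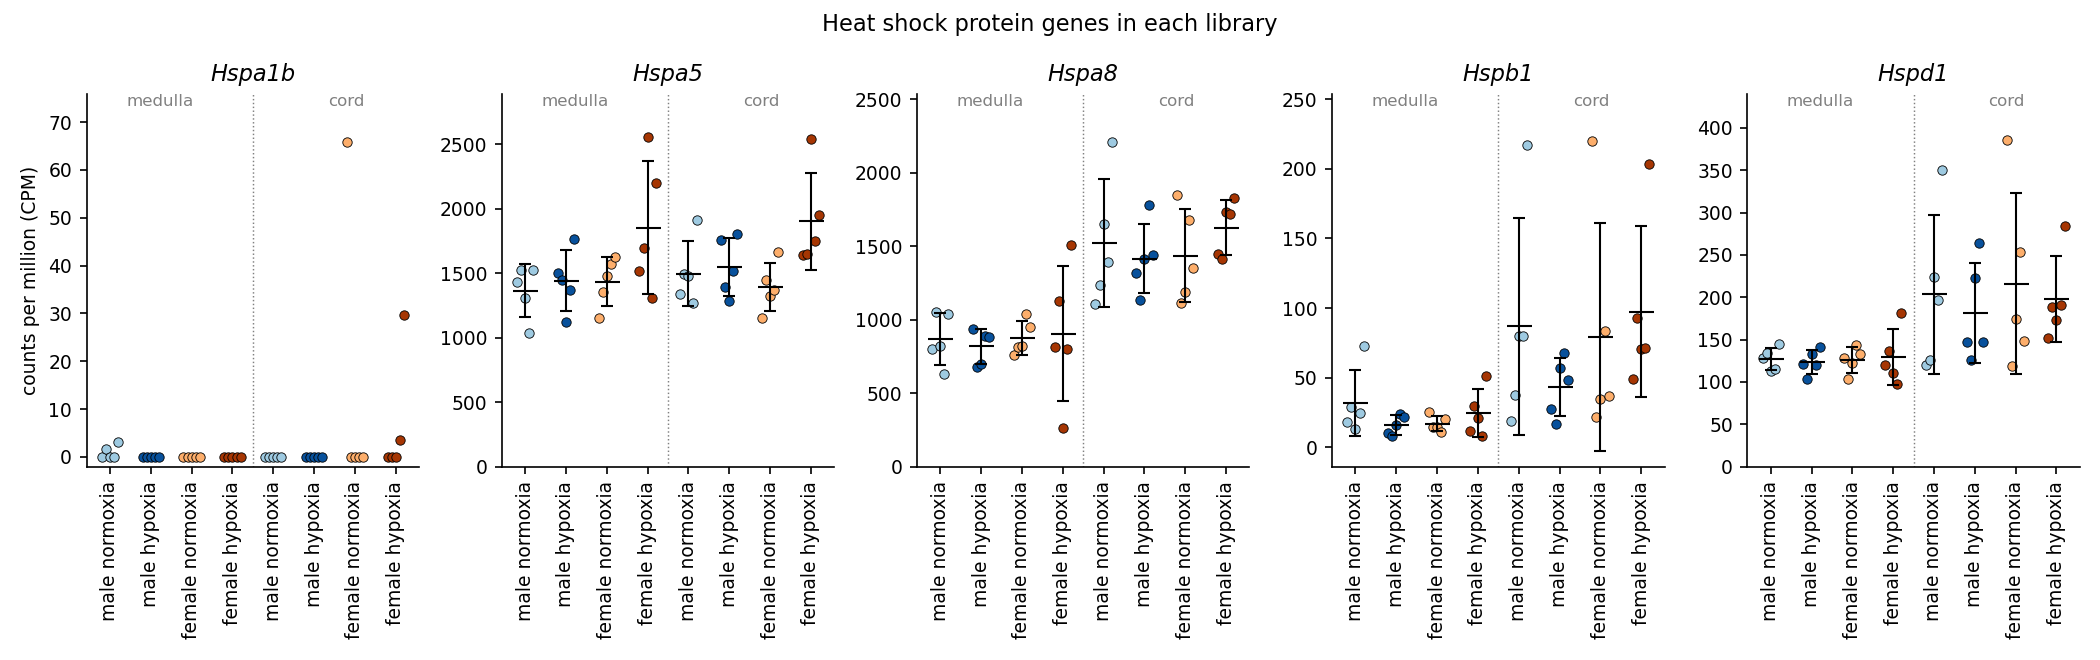
CPM of the 5 members on linear axes, 1 panel per gene, in the 8 groups of sex, exposure and region. Points are the 5 libraries of a group and black marks the mean ± SD, which is left out for Hspa1b. Hspa8, Hspb1 and Hspd1 sat higher in the cord groups, Hspa5 was highest under hypoxia in females, and Hspa1b was at 0 in 35 libraries.

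Hspa8, Hspb1 and Hspd1 had higher levels in the cord than in the medulla in nearly all animals, while Hspa5 lay on either side. Hspa8 was higher in the cord library of 20 of 20 animals, with a median cord to medulla CPM ratio of 1.64, and Hspb1 in 20 of 20 with a median ratio of 3.05. Hspd1 was higher in the cord in 18 of 20 animals with a median ratio of 1.49. Hspa5 was higher in the cord in 12 of 20, with a median ratio of 1.02. How many of all genes were higher in the cord in as many animals was not counted. In libraries of pooled cells, fewer cells of a type and less RNA per cell cannot be told apart.

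Hspa8, the constitutive cytosolic Hsp70-family gene, showed little overlap between the regions. In replicate order it measured 800.5, 1050.2, 820.0, 630.1 and 1035 CPM in the medulla of normoxia males (mean 867 ± 176, SD, n = 5) and 1107, 1235, 1653, 1394 and 2210.0 CPM in their cord (1519.8 ± 436). It measured 935, 680.3, 701, 889 and 884 CPM in the medulla of hypoxia males (mean 818 ± 118, SD, n = 5) and 1317, 1131, 1409, 1782 and 1438 CPM in their cord (1415 ± 237). In both male exposures every cord library lay above every medulla library, and the difference was called (in the normoxia males log2 fold change 0.84, SE 0.240, edgeR adjusted p = 0.0303, and in the hypoxia males log2 fold change 0.80, SE 0.240, edgeR adjusted p = 0.0328). In females Hspa8 measured 756, 816, 817, 1037 and 947 CPM in the medulla of normoxia females (mean 875 ± 114, SD, n = 5) and 1847, 1112, 1184, 1675 and 1354 CPM in their cord (1434 ± 317). It measured 816, 1127, 265, 801 and 1508 CPM in the medulla of hypoxia females (mean 903 ± 459, SD, n = 5) and 1444, 1410.5, 1729, 1716 and 1825 CPM in their cord (1625 ± 186). The normoxia groups did not overlap, and the hypoxia groups overlapped only through medulla replicate 5 at 1508 CPM. The share of all genes with as little overlap between the regions was not counted. The shallowest library, medulla replicate 3, was the lowest of all 40 at 265 CPM. The difference was called in hypoxia females (log2 fold change 0.98, SE 0.240, edgeR adjusted p = 0.00357, and log2 0.76, adjusted p = 0.00834 without medulla replicate 3, but adjusted p = 0.150 with only the groups compared) and not in normoxia females (log2 fold change 0.67, SE 0.239, edgeR adjusted p = 0.0809), where the adjusted p was 0.0181 with the shallowest library out of the shared fit, 0.0403 by DESeq2 and 0.0105 by limma voom. In normoxia females it was also 0.0162 with only the groups compared, but 0 of 10 fits that left out 1 library called it (0.0726 to 0.200). These fits did not pair the medulla and cord libraries of an animal. With the animal as a block, which compares the regions within each animal, the edgeR adjusted p was 0.0679 in normoxia females and 0.00144 in hypoxia females. It was 0.0304 in normoxia males and 0.0281 in hypoxia males. Without the block, the male calls did not hold in every fit that left out 1 library. In normoxia males the adjusted p rose to 0.0515 to 0.134 without any 1 of male normoxia cord replicates 3, 4 and 5 or male normoxia medulla replicates 1, 3 and 4. In hypoxia males it rose to 0.0544 to 0.105 without any 1 of male hypoxia cord replicates 3, 4 and 5 or male hypoxia medulla replicates 2, 3, 4 and 5.

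Hspb1, the small heat shock protein gene, had the largest fold between regions among the 4 tested members and the widest spread between animals. In replicate order it measured 18.4, 29.1, 13.6, 24.5 and 72.7 CPM in the medulla of normoxia males (mean 31.7 ± 23.7, SD, n = 5) and 19.0, 38.0, 80.1, 80.2 and 217 CPM in their cord (86.9 ± 77.6). It measured 10.5, 8.06, 15.8, 24.1 and 22.2 CPM in the medulla of hypoxia males (mean 16.1 ± 7.03, SD, n = 5) and 27.3, 17.1, 56.8, 68.2 and 48.1 CPM in their cord (43.5 ± 21.0). Cord and medulla overlapped in both male exposures, and the difference was not called without a block by animal (in males of the normoxia group log2 fold change 1.48, SE 0.591, edgeR adjusted p = 0.123, and in the hypoxia group log2 fold change 1.44, SE 0.600, edgeR adjusted p = 0.142). With the animal as a block, which compares the regions within each animal, it was called in both, with edgeR adjusted p = 0.0332 and 0.0182 and log2 fold changes of 1.29 and 1.40. Without male normoxia medulla replicate 5, the high library there, the fit without a block also called normoxia males (log2 2.05, adjusted p = 0.0435). In females Hspb1 measured 25.2, 14.5, 14.7, 11.2 and 20.4 CPM in the medulla of normoxia females (mean 17.2 ± 5.56, SD, n = 5) and 219.8, 21.8, 34.7, 83.8 and 36.9 CPM in their cord (79.4 ± 82.0). It measured 12.1, 29.8, 21.4, 8.33 and 51.4 CPM in the medulla of hypoxia females (mean 24.6 ± 17.2, SD, n = 5) and 49.0, 93.0, 70.7, 71.3 and 204 CPM in their cord (97.5 ± 61.4). Each pair of female groups overlapped only at its edge, and both exposures were called (normoxia females, log2 fold change 2.17, SE 0.609, edgeR adjusted p = 0.0300, and hypoxia females, log2 fold change 2.05, SE 0.604, edgeR adjusted p = 0.0120). The hypoxia call was lost with only the groups compared (adjusted p = 0.0972) and the normoxia call by limma voom (0.0694). In normoxia the size rested in part on cord replicate 1 at 219.8 CPM, without which the log2 fold change was 1.32 and the adjusted p 0.151. The call was also lost, at adjusted p-values of 0.0549 to 0.0735, without female normoxia cord replicate 4 or without medulla replicate 1, 2, 3 or 4. With the animal as a block Hspb1 was called in normoxia females (edgeR adjusted p = 0.00895) and in hypoxia females (0.000359).

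Hspd1, the mitochondrial chaperonin gene, spread over a narrower range in the medulla than in the cord. Over the 20 medulla libraries it ran from 97.9 to 182 CPM with a median of 125, and over the 20 cord libraries from 119 to 386 CPM with a median of 181. In replicate order the cord libraries held 119, 126, 223, 197 and 350.4 CPM in normoxia males, 148, 126, 223, 265 and 147 in hypoxia males, 386, 119, 174, 253 and 148 in normoxia females and 152, 189, 173, 191 and 284 in hypoxia females. The highest cord library, female normoxia replicate 1, was also the highest for Hspb1 and Hspa1b. In hypoxia females Hspd1 measured 119.9, 137, 110.2, 97.9 and 182 CPM in the medulla, below the cord group apart from medulla replicate 5. That was its only called region difference (log2 fold change 0.71, SE 0.262, edgeR adjusted p = 0.0411), lost at adjusted p-values of 0.0506 to 0.126 without any 1 of female hypoxia cord replicates 2, 3, 4 and 5 or female hypoxia medulla replicates 1, 2, 3 and 4. It was also lost with RLE size factors (0.0515), with no filter on low counts (0.0547), by limma voom (0.0971) and with only the groups compared (0.133). With the animal as a block this call held (edgeR adjusted p = 0.0153). Hspd1 was again not called with the block in normoxia males (0.0909), hypoxia males (0.137) or normoxia females (0.0732). The other log2 fold changes were 0.71 (adjusted p = 0.0946) in normoxia males, 0.57 (0.192) in hypoxia males and 0.74 (0.0813) in normoxia females, where DESeq2 called it (0.0480).

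Hspa5, the gene of the ER chaperone BiP, was called between regions in no group of animals. Its log2 fold changes, cord over medulla, were 0.16 (SE 0.185) in normoxia males, 0.11 in hypoxia males, -0.08 in normoxia females and 0.11 in hypoxia females, with edgeR adjusted p-values of 0.688 to 0.820. Of the 5 members, all tested in the fit of 40 libraries, 1 was called in normoxia females, 3 in hypoxia females, 1 in normoxia males and 1 in hypoxia males, all higher in the cord. Of all genes tested, 5.87%, 26.2%, 6.55% and 7.76% were called in those comparisons. The median log2 fold change of the 4 members other than Hspa1b was 0.71, 0.85, 0.77 and 0.68, against -0.02, -0.03, -0.03 and -0.01 over all genes. The regional difference was tested for a change with exposure. By edgeR, DESeq2 or limma voom 0 of the 5 members were called in females or in males (20.8% and 0% of all genes called by edgeR). Of 14832 genes, DESeq2 called 3655 in females and 0 in males, and limma voom 2574 and 0. At an unadjusted p under 0.05 there were 0 members in each tool, against 5091 genes in females and 279 in males by edgeR.

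**Figure D2:**
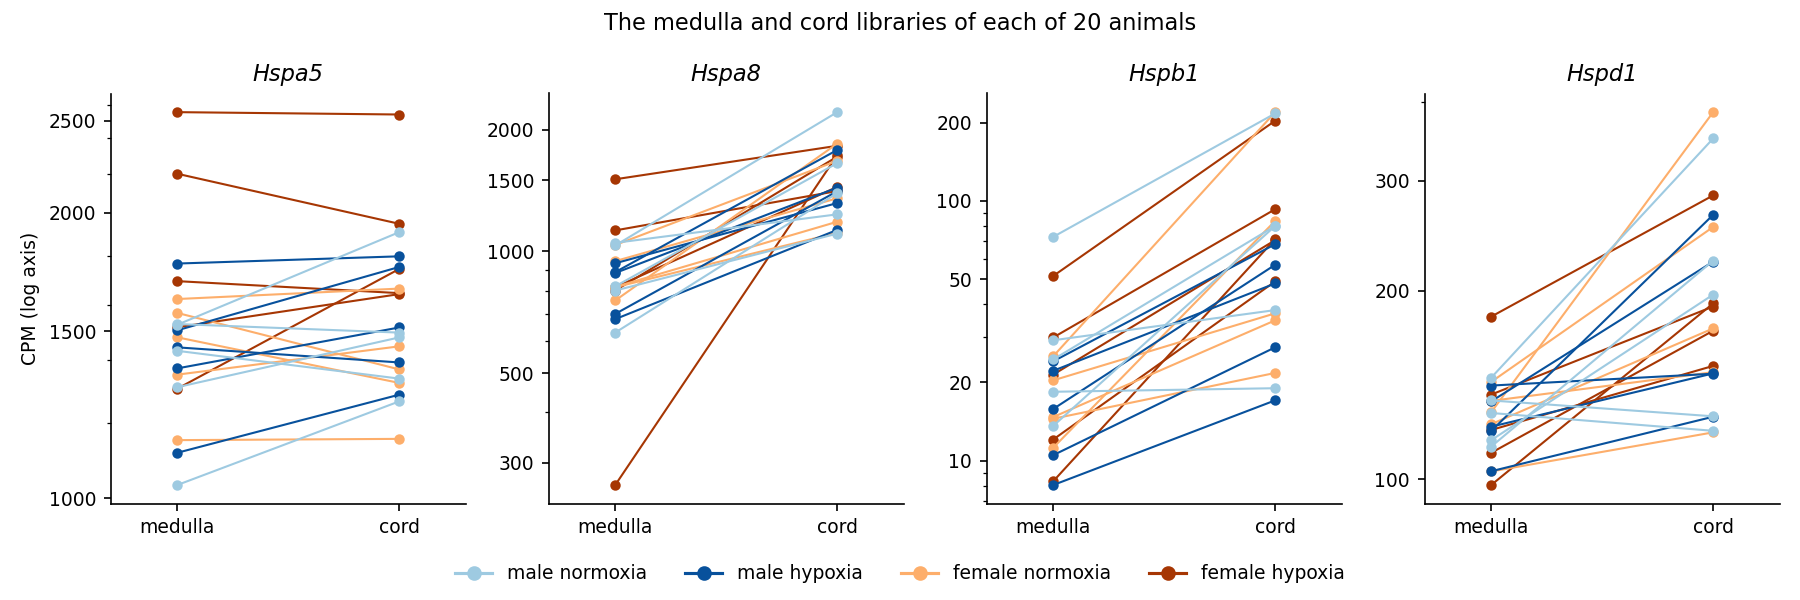
CPM of Hspa5, Hspa8, Hspb1 and Hspd1 on log axes, with a line joining the medulla and the cord library of each of the 20 animals. The lines of Hspa8 and Hspb1 rise in 20 of 20 animals, those of Hspd1 in 18 and those of Hspa5 in 12.

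Because Hspa8 and Hspa5 are read from the same library, their count ratio does not depend on the library total. The ratio was chosen after the values were seen. It averaged 0.632 ± 0.0526 (SD, n = 5) in the normoxia male medulla, 0.574 ± 0.0816 in the hypoxia male medulla, 0.612 ± 0.0469 in the normoxia female medulla and 0.521 ± 0.240 in the hypoxia female medulla. In the cord it averaged 1.01 ± 0.165, 0.927 ± 0.194, 1.06 ± 0.350 and 0.867 ± 0.115 in the same order. The ratio was higher in the cord in 20 of 20 animals. The mean log2 difference was 0.77 (SD 0.52), a 1.70-fold difference. It is given with no test, since it was chosen for the pattern it shows. The shallowest library had a ratio of 0.104, and without its animal the mean log2 difference was 0.66 (SD 0.26) in 19 of 19 animals.

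**Figure D3:**
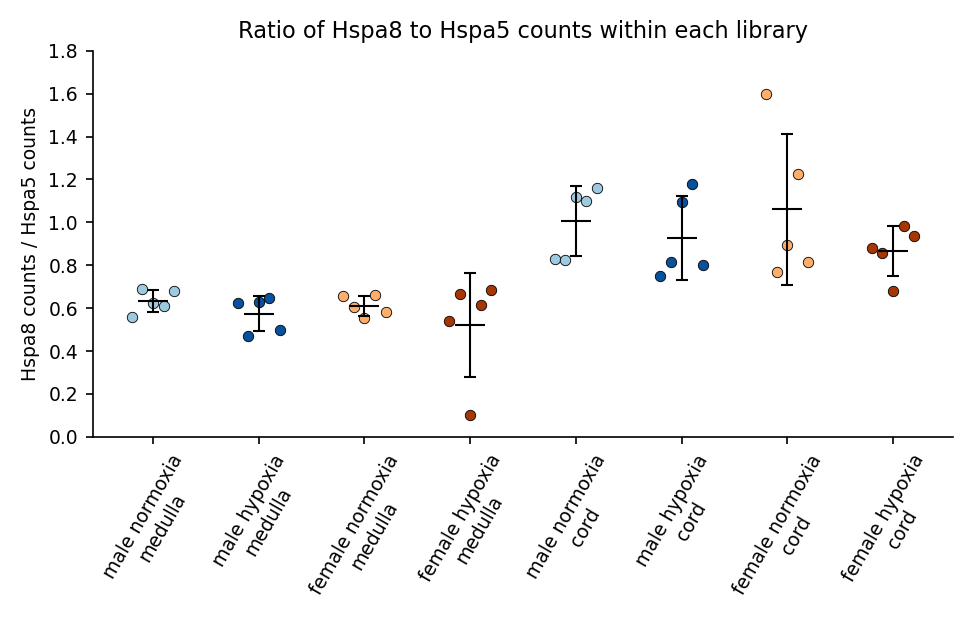
Hspa8 counts divided by Hspa5 counts in each of the 40 libraries, in the 8 groups of sex, exposure and region. Points are the 5 libraries of a group, not joined by animal, and black marks the mean ± SD. The ratio was higher in the cord in 20 of 20 animals, and the lowest point, at 0.104, is the shallowest library.

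The exposure comparison asked whether gestational intermittent hypoxia left a difference in these genes in adult offspring. Hspa5 rose after hypoxia in the female cord and was the only member called for exposure in any sex or region. It measured 1156, 1447, 1324, 1368 and 1664 CPM in the cord of normoxia females (1392 ± 186, SD, n = 5) and 1642, 1646, 2539.6, 1746 and 1948 CPM in that of hypoxia females (1904 ± 376). All hypoxia libraries but replicates 1 and 2 lay above the highest normoxia library, and hypoxia replicate 3 was the highest. The difference was 1.52-fold (log2 fold change 0.60, SE 0.143, edgeR adjusted p = 0.00313), and it was called in 10 of 10 fits that left out 1 library, with log2 fold changes of 0.47 to 0.67. Called genes made up 32.8% of all genes in that comparison, so 1 of 4 tested members is close to that background. The hypoxia libraries were also the deeper ones, at 13570283 to 20650051 reads against 8818241 to 13327037, and the part of depth in the difference was not tested.

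The other members were not called in the female cord. Hspa8 measured 1847, 1112, 1184, 1675 and 1354 CPM under normoxia and 1444, 1410.5, 1729, 1716 and 1825 under hypoxia, with overlapping groups (log2 fold change 0.33, SE 0.173, edgeR adjusted p = 0.152). Hspb1 (log2 0.44, SE 0.601, adjusted p = 0.609) and Hspd1 (log2 0.02, SE 0.307, adjusted p = 0.972) also had overlapping groups. The Hspb1 value turned on single libraries, at log2 1.28 without female normoxia cord replicate 1 (adjusted p = 0.0923) and 0.01 without female hypoxia cord replicate 5. In the male cord Hspa5 measured 1338, 1496, 1478, 1266 and 1909 CPM under normoxia and 1754, 1391, 1287, 1514 and 1799.9 under hypoxia (log2 fold change 0.03, SE 0.143, edgeR adjusted p = 0.972). Of the 4 tested members 0 were called there by edgeR, DESeq2 or limma voom and 0 had an unadjusted p under 0.05 (0% of all genes called by edgeR). Of all 13593 genes DESeq2 called 1 and limma voom 0. At that unadjusted threshold edgeR took 841 of 13593 genes, DESeq2 931 and limma voom 1203.

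In the medulla 0 of the 4 tested members were called in either sex by edgeR, DESeq2 or limma voom (0% of all genes in females and 0% in males by edgeR). Over all genes DESeq2 called 60 of 14151 in females and 0 in males, and limma voom 1 and 0. At an unadjusted p under 0.05 edgeR gave 0 members in both sexes, DESeq2 1 in females and limma voom 1 in males. Of 14151 genes, that threshold took 2180 in females and 122 in males by edgeR. It took 2378 in females by DESeq2 and 1507 in males by limma voom. Hspa5 measured 1152, 1351, 1479, 1569 and 1623 CPM in normoxia females and 1515, 1695, 2554, 1305 and 2199 in hypoxia females, where replicates 3 and 5 were highest (log2 fold change 0.42, SE 0.217, edgeR adjusted p = 0.353, and log2 0.20, adjusted p = 0.775 without replicate 3). In males it measured 1431, 1527, 1310.1, 1033 and 1524 CPM under normoxia and 1504, 1443, 1117, 1371 and 1769 under hypoxia (log2 0.10). The Hspb1 values, all uncalled, were log2 -0.95 in the male medulla (SE 0.495), -1.01 in the male cord (SE 0.611) and 0.56 in the female medulla (SE 0.493). Single libraries moved them: the value was -0.38 without male normoxia medulla replicate 5, -0.32 without male normoxia cord replicate 5 and 0.13 without female hypoxia medulla replicate 5.

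**Figure D4:**
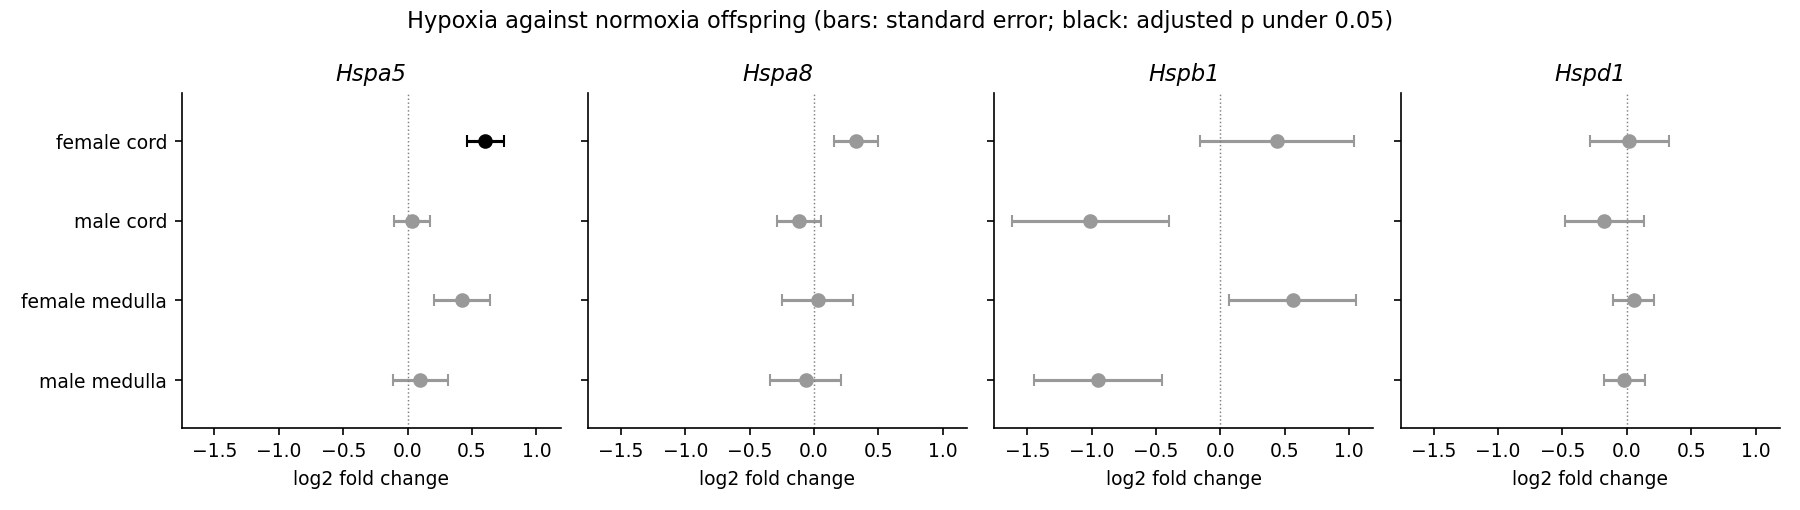
Log2 fold changes of hypoxia over normoxia for the 4 tested members in each sex and region, from edgeR, with bars of 1 SE. The only called value is Hspa5 in the female cord, at 0.60, and the Hspb1 values have the widest bars.

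The exposure response of Hspa5 in the cord was set against that of the other sex by an interaction term. By the series design males and females of an exposure include littermates, and the main fits across the sexes did not pair them. It was larger in females by log2 0.57 (SE 0.202, edgeR adjusted p = 0.0459). Of the 4 tested members 1 was called, and 23.2% of all genes. This call lies near the threshold: the adjusted p was 0.0536 to 0.0972 without any 1 of male normoxia cord replicates 2, 3 and 5 or male hypoxia cord replicates 2, 3 and 4 or female normoxia cord replicates 1, 2, 3 and 4 or female hypoxia cord replicates 2, 3 and 5. It was 0.0513 with RLE size factors, 0.0511 with no filter on low counts and 0.155 in the fit of all 40 libraries. The female hypoxia libraries had the highest mean depth of the cord groups, and the part of depth in the interaction was not tested. Hspb1 differed by log2 1.45 (SE 0.856, adjusted p = 0.225), and by 2.29 with adjusted p = 0.0380 without female normoxia cord replicate 1. In the medulla 0 members were called by edgeR, DESeq2 or limma voom (0% of all genes by edgeR), and 1 had an unadjusted p under 0.05 in each tool. By edgeR that was Hspb1 (log2 1.51, SE 0.699, unadjusted p 0.0434, adjusted p = 0.785). At that unadjusted threshold edgeR took 879 of 14151 genes, DESeq2 1006 and limma voom 808. At an adjusted p under 0.05 DESeq2 called 2 of all genes and limma voom 1.

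Between the sexes directly, Hspa5 was called in the hypoxia cord, higher in females (log2 fold change 0.41, SE 0.143, edgeR adjusted p = 0.0473), where 19.6% of all genes were called. The adjusted p was 0.0571 to 0.164 without any 1 of male hypoxia cord replicates 1, 2, 3 and 4 or female hypoxia cord replicates 2, 3, 4 and 5, 0.0525 with RLE size factors, 0.156 in the fit of all 40 libraries and 0.1005 with only the groups compared. This comparison shares the female hypoxia cord libraries with the exposure comparison, and the largest drop came without replicate 3 (log2 0.28). Every female hypoxia cord library was deeper than every male one, at 13570283 to 20650051 reads against 8145033 to 12016434. The part of depth in the difference was not tested. In the normoxia cord 0 of 4 members were called (6.56% of all genes), and in the medulla 0 of 4 under normoxia (0.0707%) and under hypoxia (0.0777%). DESeq2 and limma voom also gave 0 in these 3 comparisons. Over all 13593 genes of the normoxia cord DESeq2 called 1577 and limma voom 1246. Of 14151 genes in the medulla DESeq2 called 16 under normoxia and 41 under hypoxia, and limma voom 26 and 11. At an unadjusted p under 0.05 edgeR and limma voom gave 0 members and DESeq2 gave 1, in the hypoxia medulla. There that unadjusted threshold took 2196 of 14151 genes by DESeq2 and 2027 by edgeR. By edgeR it took 587 of 14151 in the normoxia medulla and 3196 of 13593 in the normoxia cord. By DESeq2 it took 776 and 3253 in these, and by limma voom 1696 and 3387. In the hypoxia medulla limma voom took 664.

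Levels within groups were then compared between members, as deviations of log2(CPM + 1) from the group mean, in 12 pairs (6 in each region, n = 20 libraries). The permutations treated the animals as independent, although males and females of an exposure include littermates. In the cord, Hspa8, Hspb1 and Hspd1 varied together from animal to animal. The correlation was 0.96 for Hspb1 and Hspd1 (Spearman rho 0.96), 0.90 for Hspa8 and Hspd1 (rho 0.89) and 0.90 for Hspa8 and Hspb1 (rho 0.90). The two-sided permutation p-values were 1e-05 to 2e-05, with 1e-05 the smallest these draws can give, and 6e-05 to 8e-05 after Benjamini-Hochberg adjustment. Spearman's adjusted p-values were 0.00012 to 0.00020. Without the 2 libraries farthest from the median of the first gene, r was 0.92, 0.84 and 0.84, with permutation p-values of 1e-05 to 0.00016. Male normoxia replicate 5 and female normoxia replicate 1 were high for all 3 genes. Hspa5 gave no pair past the threshold in the cord: r was 0.29 with Hspa8 (rho 0.18), 0.05 with Hspb1 (rho -0.05) and -0.05 with Hspd1 (rho -0.16), with adjusted permutation p-values of 0.38 to 0.93 for r and 0.57 to 0.85 for rho.

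Among all 13789 genes compared in the cord, Hspd1 was the second most alike to Hspb1 and Hspb1 the second most alike to Hspd1. For Hspa8, Hspd1 ranked 2nd and Hspb1 3rd, while Hspa8 ranked only 10th for Hspb1 and 13th for Hspd1. Genes with r of at least 0.9 numbered 9 for Hspb1, 13 for Hspd1 and 2 for Hspa8, and 0 for Hspa5. The gene most alike to Hspb1 had r = 0.97 and that for Hspd1 also 0.97; both are IDs without a name in the table. These ranks are descriptions over 20 libraries that share library totals.

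In the medulla fewer pairs passed, and the values moved with the shallowest library. Over 20 libraries only Hspb1 and Hspd1 were called together by r (r = 0.72, rho 0.67, adjusted permutation p = 0.0056 for r and 0.016 for rho). Without the 2 farthest libraries r was 0.55 (permutation p = 0.045). Hspa8 and Hspd1 had r = 0.61 with an adjusted permutation p of 0.19, and rho 0.62 with 0.023. With the animal of female hypoxia medulla replicate 3 aside (n = 19), 4 of the 6 pairs passed: Hspa5 and Hspa8 at r = 0.84 (adjusted permutation p = 0.00030), Hspa5 and Hspd1 at 0.65 (0.024), Hspa8 and Hspd1 at 0.77 (0.0037) and Hspb1 and Hspd1 at 0.75 (0.0037). Hspa5 and Hspa8, at -0.04 with that library, thus turned on 1 library with high Hspa5 (2554 CPM) and low Hspa8 (265 CPM). Whether the correlations differ between regions was not tested.

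**Figure D5:**
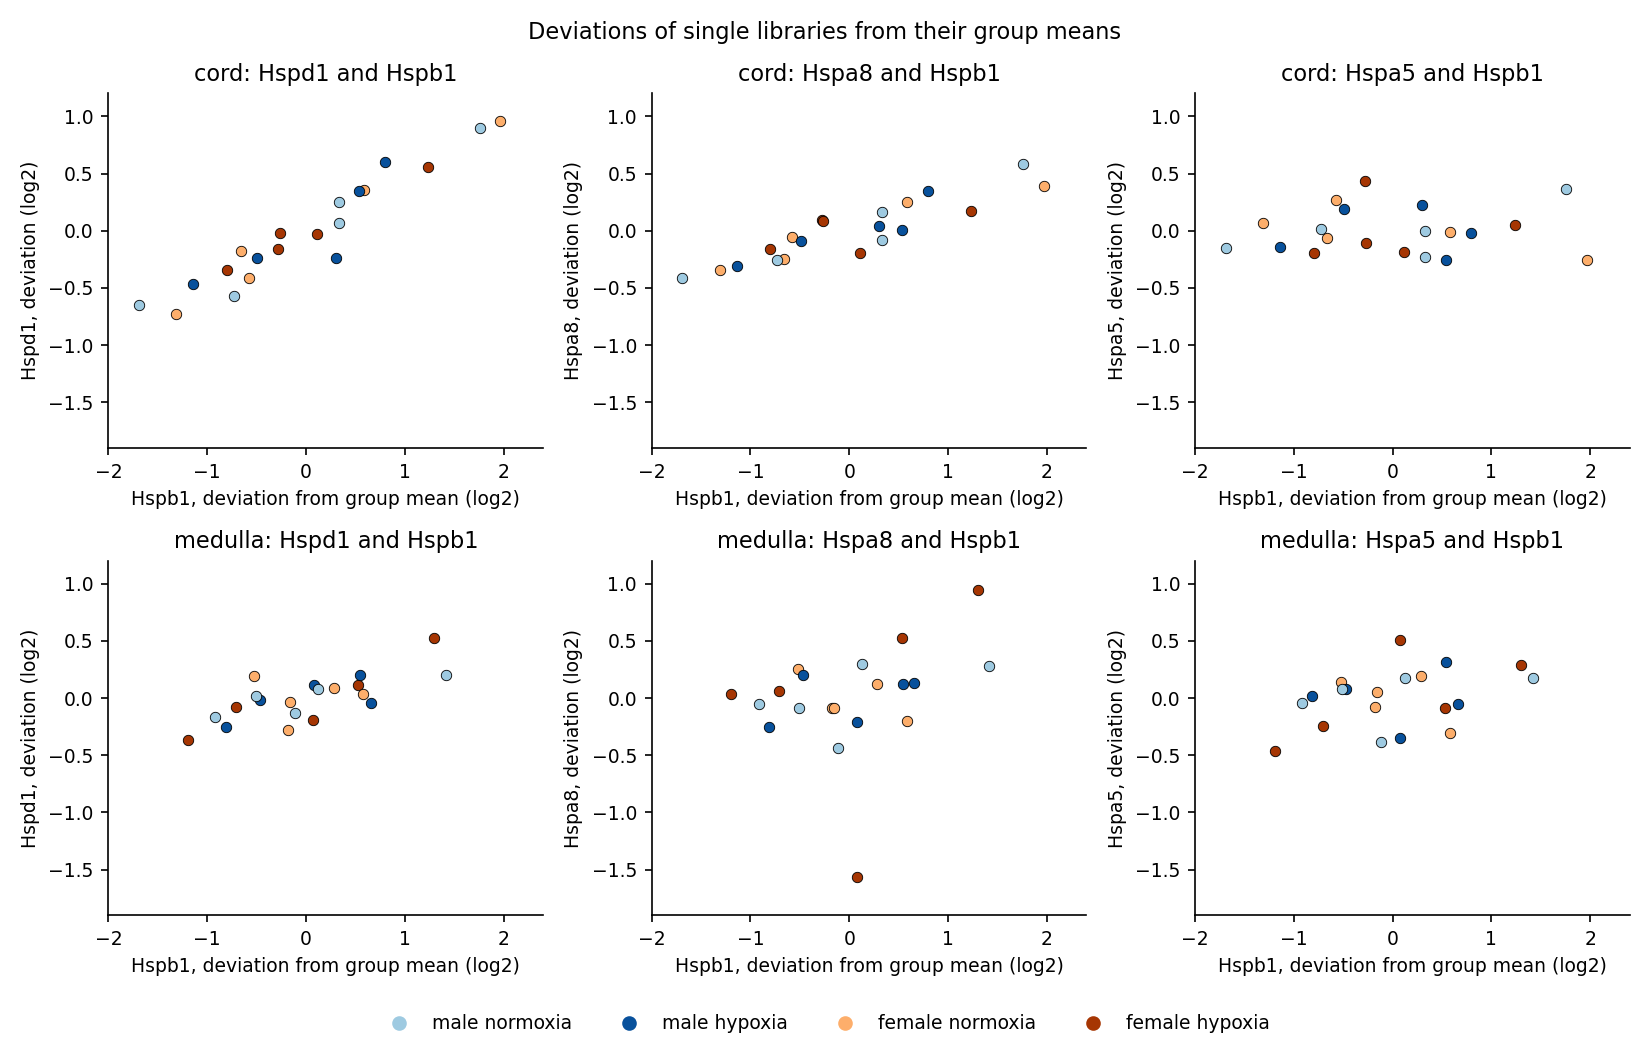
Deviations of log2(CPM + 1) from the group mean for Hspd1, Hspa8 and Hspa5, each against Hspb1, 1 point per library, in the cord and in the medulla. In the cord the points of Hspb1 and Hspd1 lie close to a line (r = 0.96), while those of Hspa5 and Hspb1 are scattered (r = 0.05).

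The medulla and cord library of each animal were compared in the same way, over 4 members and 20 animals. Hspa5 in the medulla followed Hspa5 in the cord (r = 0.79, rho 0.80, adjusted permutation p = 0.00064 and 0.00088), and without the 2 farthest animals r was 0.78 (permutation p = 0.00084). The hypoxia female that gave the shallowest library had the highest medulla level (2554 CPM) and the highest cord level (2539.6 CPM), and without it r was 0.71 (n = 19, adjusted permutation p = 0.0057). Hspb1 gave r = 0.64 (rho 0.56, adjusted permutation p = 0.0060 and 0.029), but without the 2 farthest animals r was 0.42 with permutation p = 0.066, so that by r the relation rests on those animals. Hspd1 (r = 0.41, rho 0.35, adjusted permutation p = 0.073 and 0.19) and Hspa8 (r = 0.08, rho 0.21, adjusted permutation p = 0.67 and 0.38) did not pass.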

How the data were processed

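The authors deposited a table of unnormalized counts of reads, with 32883 Ensembl gene IDs in rows and 40 libraries in columns. The submitters' processing notes name TopHat2 2.1, HTSeq, edgeR and the rat build rn6. For the annotation, the strand setting and the handling of reads that match several genes the answer is not given in the sources used here. The members and lists were chosen with earlier results of these data known. No Ensembl ID stood in any of the 47357 rows of the RefSeq table (0 matched), so other chaperone genes and cell type markers were not matched.

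Counts were tested with edgeR 4.0.16 (R 4.3.3): TMM factors, filterByExpr with a minimum count of 10, quasi-likelihood F test, Benjamini-Hochberg adjustment over all genes. Exposure, sex and their interaction used the 20 libraries of a region (13593 genes in the cord, 14151 in the medulla), and region used all 40 (14832 genes). DESeq2 1.42.0 and limma 3.58.1 with voom and quality weights were alternatives, with RLE size factors, no filter, other sets of libraries, a replicate block and each library left out in turn. The edgeR step was first tested on simulated data. Correlations used deviations of log2(CPM + 1) from group means and permutations within groups (100000 draws, two-sided, Python 3.11.15, NumPy 2.4.6). Hspa1b was left out of them because it was at 0 in 35 libraries, a change from the plan, which covered 5 members. The named genes are the 5 members in every comparison, and the most alike genes by r.

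Medulla and cord libraries with the same number come from 1 animal by the series design, so they pair. Over all genes their deviations correlated at 0.0675 to 0.410, over 0.1 in 14 of 20 animals. Hspa1b had 0 to 758 reads per library, Hspb1 98 to 3676 and Hspa5 11331 to 52443; limits cover counting error only.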

Additional observations from a re-analysis of the deposited data

Results flagged for a closer look

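Hspa1b and Hspb1 each held 2 library values that stood far from the rest of their group by Dixon's test (gap over range above 0.710 for 5 libraries), over 35 groups of 5 libraries that were tested. Chance alone gives about 1 such value in 20 groups where values are normally distributed, and whether CPM are so distributed was not tested. Hspa1b was at 65.8 CPM in female normoxia cord replicate 1, where the other 4 libraries were at 0, so that any value above 0 meets the rule and the chance rate does not apply. It was at 29.7 CPM in female hypoxia cord replicate 5, where the next library was at 3.48 CPM and 3 were at 0, so the chance rate does not apply there either. Hspb1 was at 72.7 CPM in male normoxia medulla replicate 5, where the next library was at 29.1 CPM. It was at 204 CPM in female hypoxia cord replicate 5, where the next library was at 93.0 CPM. These 4 values came from 3 animals.

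The response of Hspa5 to gestational exposure differed between the sexes in the cord by log2 0.57 by the interaction test of edgeR (adjusted p = 0.0459). In that comparison 23.2% of all genes were called. The call held in only 7 of 20 fits that left out 1 library. It was lost with RLE size factors, with no filter on low counts and in the fit of all 40 libraries.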

How the results depend on the processing

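The call of Hspa5 for exposure in the female cord held in every alternative run. The number of members called (of those tested) moved in other comparisons. The interaction of sex and exposure in the cord called 1 and gave 0 with RLE size factors, with no filter on low counts and with all 40 libraries, and 0 to 1 with 1 library left out. The sex comparison in the hypoxia cord called 1 and gave 0 with RLE size factors, with all 40 libraries and with only the groups compared, and 0 to 1 with 1 library left out. For region, normoxia females went from 1 to 4 with DESeq2 and to 2 with the shallowest library out of the fit, with only the groups compared, and with the replicate block by animal (0 to 1 with 1 library left out). Hypoxia females went from 3 to 0 with only the groups compared, to 2 with RLE size factors, no filter or limma voom, and to 4 with DESeq2 or the replicate block (2 to 3 with 1 library left out). Normoxia males went from 1 to 3 with the replicate block, and to 2 under DESeq2 (0 to 2 with 1 library left out), and hypoxia males from 1 to 2 with the replicate block (0 to 1 with 1 library left out). Hspa1b is among these calls in normoxia females with DESeq2 (adjusted p = 0.00103) and the block (0.0215), in hypoxia females (0.000459 and 0.00476) and in normoxia males (0.00704 and 0.0343). Hspa1b reads lay only in the cord in females but only in the medulla in normoxia males. Its call in normoxia males thus went opposite to those of the other members. All these Hspa1b calls rest on counts in 1 or 2 libraries of a group, so they say little of the groups. The region counts over all 14832 genes moved too. In normoxia females edgeR called 870, DESeq2 1459, limma voom 2659 and the block by animal 1201. In hypoxia females the counts were 3886, 4468, 1712 and 3736 in the same order. In normoxia males they were 972, 1583, 2008 and 1055, and in hypoxia males 1151, 1635, 1166 and 1216. Counts over all genes for the other fits are not given here. Limma voom did not call Hspb1 in normoxia females (adjusted p = 0.0694) or Hspd1 in hypoxia females (0.0971). The member pairs called in the medulla went from 1 to 2 with Spearman's rho and to 4 with the animal of the shallowest library aside. Except where a value or the fewer libraries of a fit show it, the cause was not tested. The labels do not say whether numbers mark litters within a region. Between males and females of the same number and exposure, deviations correlated over 0.1 in 7 of 10 pairs in the cord and 5 of 10 in the medulla (over all pairs of the same number, 8 of 30 and 11 of 30). By the series design males and females of an exposure include littermates, but which numbers share a litter is unsettled. A block on the number changed no count of called members. Over single members, 750 of the values with a library left out kept their side of the threshold and 48 lost and 2 gained a call; over the other alternatives 421 kept it, 13 lost and 7 gained. No called value changed sign.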
